A study of Mus musculus with 16 samples.

Results

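The genes described here are 10 genes of fetal liver macrophages: Csf1r, Adgre1, Cd5l, Mertk, Timd4, Marco, Vcam1, C1qa, C1qb and C1qc. They were taken by name from 19934 genes with a single gene symbol on a mouse expression array, and each was measured by 1 probe set. The values are the authors' log2 signal, so a difference of 1 is a change of 2-fold, and a level of one gene cannot be set against that of another.

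The 16 arrays measured RNA of fetal liver cell suspensions from mouse embryos of 4 genotypes at E14.5 and E12.5. ERG/GATA1s embryos carried an ERG transgene and the GATA1s knock-in allele, which encodes a short form of the transcription factor GATA1 without the start of the protein. WT/GATA1s embryos carried the knock-in allele alone, ERG Tg embryos carried the transgene alone, and WT embryos carried neither. Each of the 8 groups held 1 array labelled female and 1 labelled male, and pairs of values below give the array labelled female first. ERG carriers are the ERG Tg and ERG/GATA1s arrays, and GATA1s carriers are the WT/GATA1s and ERG/GATA1s arrays. The promoter and the species of the transgene, the number of copies of the X-linked knock-in allele in females, and the number of embryos in a sample are not stated in the labels. The p-values therefore measure the spread between these samples. Array medians ran from 4.79 to 4.94, and the median residual SD over genes was 0.1615 on the log2 scale. The number of arrays limits the precision.

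Macrophages are among the first blood cells to settle in the fetal liver. There they sit at the centre of erythroblastic islands, hold maturing red cell precursors through adhesion molecules such as Vcam1, and engulf the nuclei that the precursors expel. Resident liver macrophages, the Kupffer cells, include descendants of these cells, depend on the receptor Csf1r, and clear dying cells and particles with receptors such as Mertk, Timd4 and Marco.

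The signals of sex-specific genes opposed the labelled sex on 3 arrays. Both the E12.5 WT/GATA1s and the E12.5 ERG/GATA1s arrays labelled male had signals of Xist, the RNA that coats the inactive X chromosome, of 9.83 and 9.51, and mean signals of Eif2s3y, Kdm5d and Uty, which lie on the Y chromosome, of 3.77 and 3.92. At E14.5 the array labelled female of ERG/GATA1s had Xist at 4.22 and a Y-linked mean of 6.5. Calls of the 10 genes are given below with and without these 3 arrays where they differ, and those of the other gene lists once for each comparison, an alternative chosen after seeing the data. The E12.5 WT and E14.5 ERG Tg arrays labelled male carried both signals, with Xist at 9.35 and 10.03 and Y-linked means of 4.95 and 5.27.

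RefSeq promoter windows (GRCm38.p6, 250 bases before to 50 bases after the annotated start of transcription) were matched for 6 of the 10 genes. Windows of 5 genes follow, 5′ to 3′ on the gene's strand. That of Marco, the only gene of the 10 with a positive difference in ERG carriers at E14.5, is not printed. Cd5l (chr3:87357631-87357930, plus strand) was at background at E12.5, Mertk (chr2:128698665-128698964, plus strand) and Timd4 (chr11:46810549-46810848, plus strand) were lower in ERG carriers, and C1qb (chr4:136886151-136886450, minus strand) and C1qc (chr4:136892865-136893164, minus strand) are neighbours in the C1q cluster. Capitals mark the motifs found.
Cd5l: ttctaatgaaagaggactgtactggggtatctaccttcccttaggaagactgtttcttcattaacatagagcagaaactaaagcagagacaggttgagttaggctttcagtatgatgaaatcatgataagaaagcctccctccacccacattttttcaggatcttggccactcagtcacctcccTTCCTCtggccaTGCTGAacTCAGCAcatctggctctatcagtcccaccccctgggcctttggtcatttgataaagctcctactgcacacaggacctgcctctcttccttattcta
Mertk: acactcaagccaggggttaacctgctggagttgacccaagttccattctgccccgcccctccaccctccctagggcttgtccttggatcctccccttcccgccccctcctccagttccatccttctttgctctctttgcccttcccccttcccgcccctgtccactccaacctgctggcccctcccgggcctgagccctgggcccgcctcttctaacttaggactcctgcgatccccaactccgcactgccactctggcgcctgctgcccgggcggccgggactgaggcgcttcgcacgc
Timd4: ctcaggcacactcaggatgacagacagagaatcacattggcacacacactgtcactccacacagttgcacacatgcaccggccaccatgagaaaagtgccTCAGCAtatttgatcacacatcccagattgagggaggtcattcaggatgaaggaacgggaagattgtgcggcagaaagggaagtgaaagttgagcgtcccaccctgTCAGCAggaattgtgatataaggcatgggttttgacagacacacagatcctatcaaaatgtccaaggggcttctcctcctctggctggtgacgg
C1qb: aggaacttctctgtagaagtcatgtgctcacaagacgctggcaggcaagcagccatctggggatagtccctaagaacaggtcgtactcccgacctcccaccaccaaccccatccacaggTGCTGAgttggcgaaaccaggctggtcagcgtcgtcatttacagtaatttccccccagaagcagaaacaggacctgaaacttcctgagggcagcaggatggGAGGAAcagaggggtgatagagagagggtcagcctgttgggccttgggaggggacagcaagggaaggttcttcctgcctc
C1qc: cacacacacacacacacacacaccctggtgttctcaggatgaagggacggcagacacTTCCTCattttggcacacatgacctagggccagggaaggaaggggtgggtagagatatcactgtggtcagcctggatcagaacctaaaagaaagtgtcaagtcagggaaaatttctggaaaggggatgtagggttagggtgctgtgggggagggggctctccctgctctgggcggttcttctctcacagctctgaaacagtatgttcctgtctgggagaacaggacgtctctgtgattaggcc
Both strands were searched for 4 motifs, and no match overlaps another within these windows. The core of sites of PU.1, the ETS factor of macrophages, is GAGGAA. It was found in Cd5l, Marco, C1qb and C1qc, that is in 4 of the 6 windows, against 28.3% of all 32851 mouse windows. A repeat unit of the sites that MAF factors of macrophages bind is TGCTGA. It was found in Cd5l, Timd4 and C1qb, in 3 of the 6 windows, against 19.5% of all windows. A core of sites shared by many ETS factors, ERG among them, is CCGGAA, which 14.9% of all windows hold. A site of GATA factors is AGATAA, which 11.2% of all windows hold. Neither was found in the 6 windows, which says only that these letters are not there. Other spellings of ETS and GATA sites were not searched, and the windows do hold some, such as TGATAA in Cd5l and TGATAG in C1qb. In Cd5l the 2 matches to the MAF unit face each other across 2 bases, beginning 54 bases before the start of transcription. MAF factors are known to bind facing units as dimers. This arrangement was looked for after the window had been read, and 2 of the 32851 windows hold it (0.00609%).

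The first comparison asked how the macrophage genes differ between E14.5 and E12.5. Signal was higher at E14.5 for each of the 10 genes, from at least 7.92-fold for Cd5l, which was not above background at E12.5, to 1.20-fold for Csf1r, and limma's test, with Benjamini-Hochberg adjustment over all genes at 0.05, called all 10. Cd5l was tested through its E14.5 arrays alone, and the other 9 genes were above background on all 16 arrays. Of all 16258 units tested (genes, with 516 sets of genes that share a probe set), 29% were called higher at E14.5. The median log2 difference of the 10 genes was 1.02, also with Cd5l at its bound, against -0.03 over all genes tested. The E14.5 and E12.5 arrays did not overlap for 8 of the 10 genes, against 8.32% of all genes in that direction. Cd5l is 1 of these 8. Because it passed the filter through its E14.5 arrays alone, its call and its separation are not counted as support. In whole suspensions of liver cells, fewer cells of a type and less RNA per cell cannot be told apart.

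**Figure D1:**
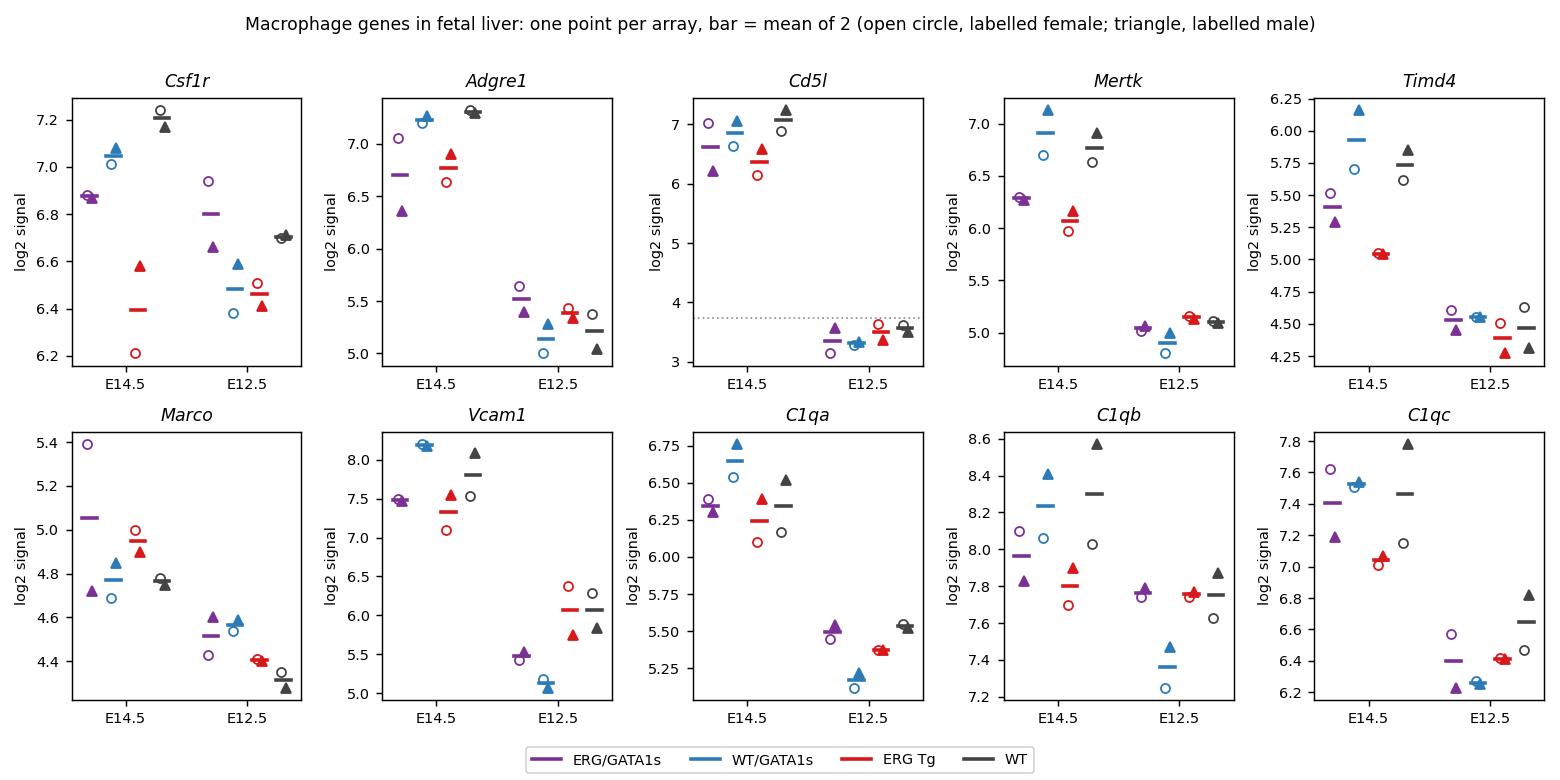
Log2 signal of the 10 macrophage genes on each of the 16 arrays, with E14.5 left of E12.5 in each panel and, within a stage, ERG/GATA1s, WT/GATA1s, ERG Tg and WT from left to right. Open circles are arrays labelled female, triangles arrays labelled male, bars the means of the 2 arrays, and the dotted line in the Cd5l panel the dim level of 3.74; all 8 Cd5l values at E12.5 lie under it.

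Cd5l encodes a soluble scavenger protein secreted by tissue macrophages, also called apoptosis inhibitor of macrophages. At E14.5 its signal was 7.02 and 6.22 in ERG/GATA1s, 6.64 and 7.06 in WT/GATA1s, 6.14 and 6.59 in ERG Tg, and 6.89 and 7.24 in WT. At E12.5 it was 3.14 and 3.57 in ERG/GATA1s, 3.29 and 3.34 in WT/GATA1s, 3.63 and 3.36 in ERG Tg, and 3.62 and 3.51 in WT. All 8 E12.5 arrays lay at or below 3.74, the 30th percentile of all values, below which a probe set was treated as dim. The E14.5 mean was at least 7.92-fold above the dim level, and the measured mean was 3.43 at E12.5 (limma adjusted p = 2.16e-09). Every E14.5 array lay above that level, so the size of the rise has a lower bound only.

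Adgre1 encodes the classical surface antigen of mouse macrophages. At E14.5 it measured 7.05 and 6.36 in ERG/GATA1s, 7.20 and 7.26 in WT/GATA1s, 6.63 and 6.90 in ERG Tg, and 7.32 and 7.29 in WT. At E12.5 it measured 5.64 and 5.40 in ERG/GATA1s, 5.0 and 5.28 in WT/GATA1s, 5.43 and 5.34 in ERG Tg, and 5.38 and 5.04 in WT. Every E14.5 array was thus above every E12.5 array, and the fitted difference was 1.69 ± 0.10 (3.22-fold, limma adjusted p = 3.09e-08).

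Csf1r, the receptor through which CSF1 and IL-34 sustain macrophages, moved least. At E14.5 its signal was 6.88 and 6.87 in ERG/GATA1s, 7.01 and 7.08 in WT/GATA1s, 6.21 and 6.58 in ERG Tg, and 7.24 and 7.17 in WT. At E12.5 it was 6.94 and 6.66 in ERG/GATA1s, 6.38 and 6.59 in WT/GATA1s, 6.51 and 6.41 in ERG Tg, and 6.70 and 6.71 in WT. The stages overlapped, and signal was higher at E14.5 in 6 of 8 pairs matched for genotype and labelled sex. The fitted rise was 0.27 ± 0.08 (limma adjusted p = 0.00848), a call lost after a further quantile normalization (adjusted p = 0.0861) and without the 3 arrays that oppose their labelled sex (adjusted p = 0.0514). By genotype, the E14.5 mean exceeded the E12.5 mean by 0.08 in ERG/GATA1s, 0.56 in WT/GATA1s and 0.50 in WT, and the difference was -0.07 in ERG Tg.

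Vcam1 is the adhesion molecule by which island macrophages hold erythroblasts through the integrin VLA-4, and endothelial and stromal cells carry it too. At E14.5 it measured 7.49 and 7.47 in ERG/GATA1s, 8.20 and 8.18 in WT/GATA1s, 7.10 and 7.55 in ERG Tg, and 7.53 and 8.09 in WT. At E12.5 it measured 5.43 and 5.53 in ERG/GATA1s, 5.18 and 5.07 in WT/GATA1s, 6.38 and 5.75 in ERG Tg, and 6.29 and 5.84 in WT. The fitted rise was 2.02 ± 0.12 (4.05-fold, limma adjusted p = 2.63e-08). It was not even across genotypes: the means differed by 2.00 in ERG/GATA1s, 3.07 in WT/GATA1s, 1.26 in ERG Tg and 1.75 in WT.

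Among the clearance receptors, Mertk, a receptor tyrosine kinase that binds dying cells through bridging proteins, rose by 1.46 ± 0.07 (2.76-fold, limma adjusted p = 7.59e-09). Its 8 E14.5 arrays lay between 5.97 and 7.13, above the 8 E12.5 arrays at 4.8 to 5.16. Timd4, which binds phosphatidylserine on dying cells, lay between 5.04 and 6.16 at E14.5 and between 4.27 and 4.63 at E12.5, a rise of 1.04 ± 0.09 (limma adjusted p = 5.74e-07). Marco, a scavenger receptor for bacteria and particles, lay between 4.69 and 5.39 at E14.5 and between 4.28 and 4.60 at E12.5, without overlap, and its rise of 0.44 ± 0.09 was one of the small ones (limma adjusted p = 0.000944).

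C1qa, C1qb and C1qc encode the chains of C1q, which starts the classical complement pathway and is made mainly by macrophages. The RefSeq annotation places them next to one another on chromosome 4, in the order C1qb, C1qc, C1qa with no other annotated gene between them. C1qa lay between 6.10 and 6.76 at E14.5 and between 5.12 and 5.55 at E12.5, and rose by 1.0 ± 0.07 (limma adjusted p = 1.06e-07). C1qc lay between 7.01 and 7.78 at E14.5 and between 6.23 and 6.82 at E12.5, and rose by 0.93 ± 0.10 (adjusted p = 6.68e-06). C1qb rose by 0.42 ± 0.08 (adjusted p = 0.000858), and its E14.5 range of 7.70 to 8.57 overlapped its E12.5 range of 7.25 to 7.87. The 3 chains of one complex thus had rises of different size on the array, and those differences were not tested against one another.

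Other macrophage genes divided between the directions at E14.5 relative to E12.5, as did the units tested as a whole. Of those 16258 units 9135 were called, 4718 of them higher. Of 9 macrophage transcription factors, 3 rose and 2 fell. Spic, needed for red pulp macrophages, rose by 1.58 (limma adjusted p = 2.48e-08), Nr1h3, the oxysterol receptor LXRα, by 1.01, and its partner Rxra by 0.64. Spi1, which encodes PU.1, fell by 0.99 (adjusted p = 3.62e-06), and Cebpb fell by 0.41. Among 7 further surface markers of resident macrophages that were tested, 4 rose: Lyve1 (1.51) and Mrc1 (1.20), which sinusoidal endothelium also carries, Fcgr1 (0.34) and Folr2 (0.33). Cx3cr1, the fractalkine receptor of monocytes and young macrophages, fell by 0.35. Vsig4, Cd163 and Ms4a7 stayed below the filter on dim probe sets.

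Of 13 genes for the clearance of dying cells and nuclei, 12 rose, with a median of 0.78. They included the thrombospondin and lipid receptor Cd36 (2.15), the hyaluronan receptor Stab2 (1.72), the cholesterol exporter Abca1 (1.64), the kinase Axl (0.78) and the DNase of phagocytosed nuclei, Dnase2a (0.32). Tyro3 differed by -0.07 and was not called. Scavenger receptors rose in 4 of 5 cases and classical complement partners in 6 of 8, among them C1s1 (1.85), Serping1 (1.72) and C2 (1.19), which hepatocytes make. C5ar1, a receptor of myeloid cells, fell by 0.29. Of 5 genes of iron recycling, 3 rose, among them the iron exporter Slc40a1 (1.80) and the haem oxygenase Hmox1 (0.97), and Ftl1 fell by 0.28. Of 6 genes of erythroblast island adhesion, 3 rose, among them Itgav (0.87) and Itgb1 (0.40). Of the CSF1 list, Csf1 rose by 0.65 while Csf2ra and Csf2rb, chains of the GM-CSF receptor, fell by 1.25 and 0.53.

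Of 10 general phagocyte genes, which granulocytes share, 4 rose and 4 fell, with a median of -0.08. Ctss rose by 0.64 and Cd68 by 0.49, while Fcgr2b fell by 0.90 and Laptm5 by 0.54. Markers of other cell types moved between stages too. All 12 hepatoblast genes rose (median 1.88), with a list mean of 10.09 to 11 on the E14.5 arrays and 8.34 to 9.64 on the E12.5 arrays. Endothelial genes rose in 7 of 10 cases and fell in 1, with list means of 6.60 to 7.01 at E14.5 and 6.03 to 6.41 at E12.5. Of 13 monocyte and granulocyte genes 3 rose and 9 fell. All 7 immediate early genes, which respond to handling of cells, fell (median -1.33), with list means of 5.04 to 7.17 at E14.5 and 6.84 to 7.84 at E12.5. In GATA1s carriers these means were 6.74 to 7.17 at E14.5 and 7.59 to 7.84 at E12.5. In non-carriers they were 5.04 to 5.48 and 6.84 to 7.60. The part of these lists in the rise of the macrophage genes was not tested. Without the 3 arrays that oppose their labelled sex, 10 of the 13 clearance genes, 5 of the 8 complement partners, 5 of the 10 endothelial genes and all 12 hepatoblast genes were called higher. Monocyte and granulocyte genes were then higher in 2 cases and lower in 8, general phagocyte genes higher in 4 and lower in 2, and Folr2 lost its call (0.24, limma adjusted p = 0.0824).

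The second comparison asked what the ERG transgene does at E14.5. Of the 10 genes, Mertk, Timd4, Csf1r and Adgre1 were lower in ERG carriers than in non-carriers and passed the test, and 2.01% of all genes were called lower. The differences of 9 of the 10 genes were below 0, with a median of -0.48, against -0.01 over all genes. For these same 4 genes every ERG carrier array lay below every non-carrier array, against 2.39% of all genes.

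Mertk at E14.5 had 6.30 and 6.27 in ERG/GATA1s and 5.97 and 6.16 in ERG Tg, against 6.70 and 7.13 in WT/GATA1s and 6.63 and 6.91 in WT. The highest carrier array thus lay under the lowest non-carrier array. Carriers averaged 6.18 ± 0.15 and non-carriers 6.84 ± 0.23 (SD, n = 4 each), a difference of -0.67 ± 0.10 (SE; 1.59-fold lower, limma adjusted p = 0.0016). This call held in each of 11 other settings and without each of the 16 arrays in turn, with an adjusted p of at most 0.0231, the value without the 3 arrays that oppose their labelled sex.

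Timd4 at E14.5 had 5.52 and 5.29 in ERG/GATA1s and 5.05 and 5.04 in ERG Tg, against 5.70 and 6.16 in WT/GATA1s and 5.62 and 5.85 in WT. Both ERG Tg arrays were the lowest of the stage. Carriers averaged 5.23 ± 0.23 and non-carriers 5.83 ± 0.24 (SD, n = 4 each), a difference of -0.61 ± 0.12 (1.52-fold lower, limma adjusted p = 0.0115). The call was lost without the ERG Tg array labelled female, the WT/GATA1s or the ERG/GATA1s array labelled male (adjusted p up to 0.0697), and without the 3 arrays (0.0762, difference -0.67).

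Csf1r, whose arrays are given above, averaged 6.64 ± 0.32 in carriers and 7.13 ± 0.10 in non-carriers (SD, n = 4 each). The difference was -0.49 ± 0.11 (1.40-fold lower, limma adjusted p = 0.017), and most of the spread among carriers lay between ERG Tg at 6.21 and 6.58 and ERG/GATA1s at 6.88 and 6.87. The call was lost without the ERG Tg array labelled female or without any 1 of the 4 GATA1s carrier arrays at E14.5 (adjusted p up to 0.153), and without the 3 arrays (0.0712). Adgre1 averaged 6.74 ± 0.30 in carriers and 7.27 ± 0.05 in non-carriers, a difference of -0.53 ± 0.14 with an adjusted p of 0.0491, at the edge of the threshold. It was retained in 4 of 11 other settings and in 2 of 16 fits without 1 array, the adjusted p reaching 0.316, and was -0.70 with an adjusted p of 0.0334 without the 3 arrays.

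The other 6 genes did not pass. Vcam1 differed by -0.60 ± 0.16 (limma adjusted p = 0.0606), with a value under that of its paired non-carrier array in 4 of 4 pairs. Cd5l differed by -0.47 ± 0.18 (adjusted p = 0.22), and was called once the ERG/GATA1s array labelled female was left out, whose sex markers oppose its label (-0.71, adjusted p = 0.0262). C1qb differed by -0.39 (adjusted p = 0.0944), C1qc by -0.27 (0.492) and C1qa by -0.20 (0.404). Marco, alone of the 10, had a positive difference, 0.24 ± 0.12 (adjusted p = 0.48), of which the ERG/GATA1s array labelled female held the highest value, 5.39. Without the 3 arrays, that one among them, it was 0.07 (adjusted p = 0.897).

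**Figure D2:**
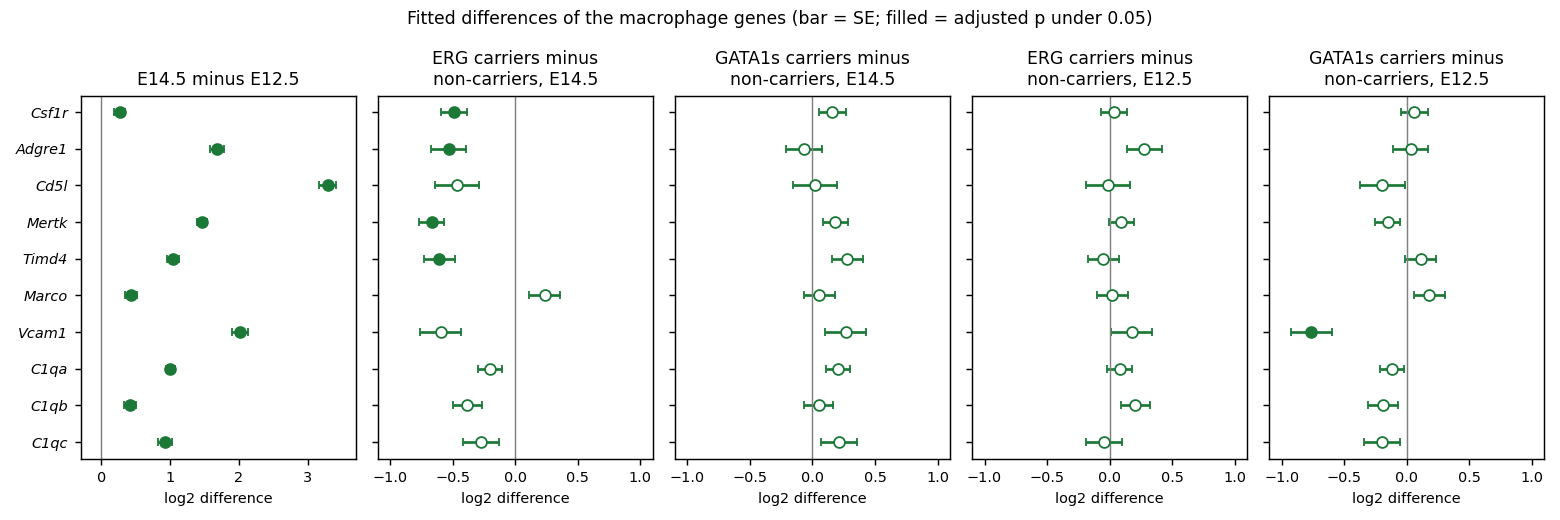
Fitted log2 differences of the 10 macrophage genes in 5 comparisons, with SE bars and filled points for an adjusted p under 0.05. All 10 points are filled for E14.5 minus E12.5, where that of Cd5l is set against a signal at background, 4 for ERG carriers at E14.5 (Mertk, Timd4, Csf1r, Adgre1), none for GATA1s carriers at E14.5 or ERG carriers at E12.5, and 1 (Vcam1) for GATA1s carriers at E12.5.

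The other macrophage lists held few calls in ERG carriers at E14.5. None of 9 macrophage transcription factors, 6 CSF1 list genes, 7 resident markers, 10 general phagocyte genes, 5 scavenger receptors, 8 complement partners, 6 adhesion genes or 5 iron genes passed limma's test. Among transcription factors Spi1 differed by -0.07, Spic by -0.14 and Maf by -0.14. Of the clearance genes Abca1 fell by 0.46 (adjusted p = 0.0252). All 13 differences of that list were below 0, with a median of -0.32. Its mean was 6.59 to 6.67 on carrier arrays and 6.80 to 6.97 on non-carrier arrays, without overlap. Gas6 and Pros1, which bridge Mertk to dying cells, differed by -0.14 and -0.32, and the related kinase Axl by -0.33, none of them called.

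Markers of other cell types were set beside these values. Of 13 monocyte and granulocyte genes none was called (median -0.17), with list means of 5.89 to 7.73 in carriers and 6.63 to 7.38 in non-carriers. No hepatoblast gene was called, although all 12 were below 0 (median -0.27, list means 10.27 to 10.67 in carriers and 10.09 to 11 in non-carriers). Among erythroid genes, 4 of 9 fell, including Rhd by 0.66 and Alas2 by 0.58. The endothelial genes Pecam1 (0.44) and Kdr (0.42) rose. Of 8 megakaryocyte genes 2 rose and 1 fell (median -0.34), and without the 3 arrays 0 were called higher and 1 lower. The part of these cell types in the lower macrophage signals was not tested. Leaving out the 3 arrays, limma called none of the 9 erythroid genes, of which 8 had an unadjusted p under 0.05, and Abca1 (-0.50, limma adjusted p = 0.0998), Pecam1 (0.40, 0.169) and Kdr (0.40, 0.0996) lost their calls, while 1 scavenger receptor was called higher and 2 complement partners lower.

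**Figure D3:**
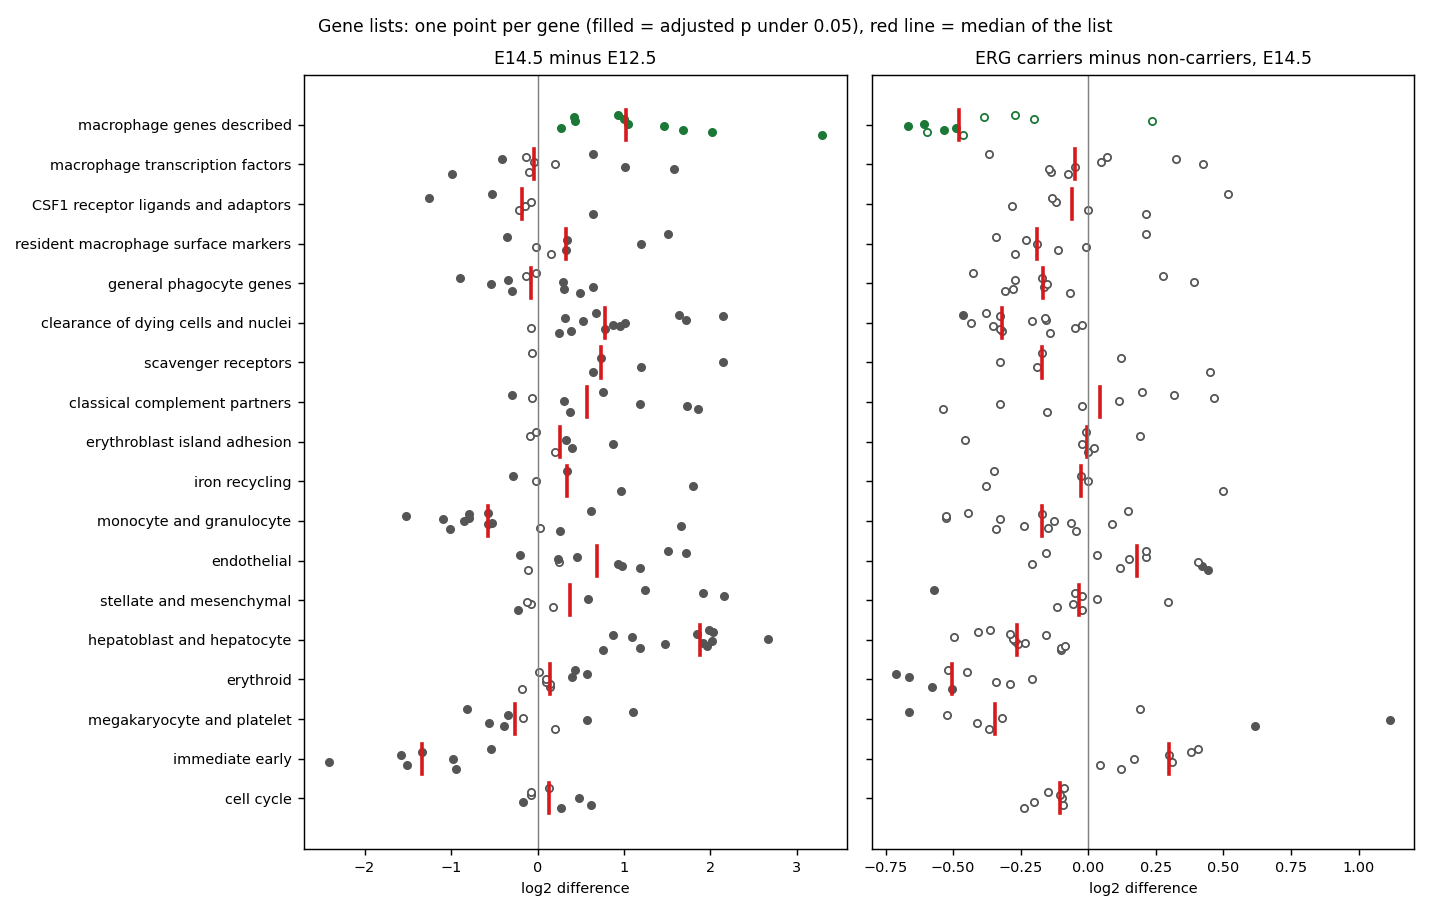
Log2 differences of the genes in each list, E14.5 minus E12.5 on the left and ERG carriers minus non-carriers at E14.5 on the right, 1 point per gene, filled for an adjusted p under 0.05, with the median of the list in red. The macrophage genes described here, in green in the top row, have medians of 1.02 and -0.48, and the hepatoblast list medians of 1.88 and -0.27.

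Against WT alone, with 2 arrays in each group, ERG Tg livers at E14.5 had 2 of the 10 genes lower, Csf1r by 0.81 ± 0.15 (1.75-fold, limma adjusted p = 0.0127) and Mertk by 0.71 ± 0.14 (1.63-fold, adjusted p = 0.0209). Of all genes, 0.504% were called lower. Cd5l (-0.70) and Timd4 (-0.69) had differences close to that of Mertk without passing (adjusted p = 0.279 and 0.069). Mertk lost its call without any 1 of the 4 arrays compared, and Csf1r without the WT or the ERG Tg array labelled female. Without the 3 arrays that oppose their labelled sex the adjusted p was 0.0368 for Csf1r and 0.0606 for Mertk. In the same arrays, 5 of 13 monocyte and granulocyte genes fell, among them Mpo by 1.27, Elane by 1.30 and Prtn3 by 1.09, and the adaptor Tyrobp fell by 0.95. When the 3 arrays were left out, 3 of the 13 were called lower. Their list mean was 5.89 and 6.07 in ERG Tg and 7.38 and 6.66 in WT, and its part in the fall of Csf1r, which monocytes also carry, was not tested. Of 8 megakaryocyte genes 4 fell and 1 rose (median -0.785), and without the 3 arrays 2 were called lower and 0 higher. The part of megakaryocytes in the lower Csf1r and Mertk signals was not tested.

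In ERG/GATA1s against WT at E14.5, Mertk fell by 0.49 ± 0.14 (limma adjusted p = 0.0468), 1 gene of the 10, where 4.69% of all genes were called lower. The call was kept in 4 of 16 fits without 1 array, the adjusted p reaching 0.326, and was lost without the 3 arrays (-0.59, adjusted p = 0.138). Adgre1 differed by -0.60 (0.0802), and by -0.93 with an adjusted p of 0.0457 without the 3 arrays. Csf1r differed by -0.33 (0.225). In the same arrays all 9 erythroid genes fell (median -1.04), with list means of 9.65 and 9.30 in ERG/GATA1s and 10.74 and 10.36 in WT. Of 8 megakaryocyte genes 5 rose, of 13 monocyte and granulocyte genes 5, and all 7 immediate early genes (median 1.49). In a fit without the 3 arrays limma called 5 erythroid genes lower, and 2 megakaryocyte, 4 immediate early and 0 monocyte and granulocyte genes higher, and 5 of the 13 monocyte and granulocyte genes had an unadjusted p under 0.05. The part of these cells in the lower Mertk signal was not tested.

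In WT/GATA1s against WT at E14.5 none of the 10 genes was called by limma, and 1.07% of all genes were called. An unadjusted p under 0.05 was found for 1 of the 10 and for 2226 of the 16258 units tested. These comparisons share the WT arrays.

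Whether the transgene acts differently with the knock-in allele was tested directly at E14.5. None of the 10 genes passed the test of the ERG by GATA1s interaction, and 0.0984% of all genes were called. Of the 16258 units tested 799 had an unadjusted p under 0.05, among them 1 of the 10 genes. That gene was Csf1r, with an interaction of 0.64 ± 0.21 (unadjusted p = 0.00944, limma adjusted p = 0.622). For Mertk the interaction was 0.08 ± 0.20 (adjusted p = 0.997), with group means of 6.29 in ERG/GATA1s against 6.92 in WT/GATA1s and of 6.07 in ERG Tg against 6.77 in WT.

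At E12.5 no gene of the 10 was called in ERG carriers against non-carriers, none had an unadjusted p under 0.05, and 0% of all genes were called. Mertk had 5.02 and 5.06 in ERG/GATA1s and 5.16 and 5.13 in ERG Tg, against 4.8 and 5.0 in WT/GATA1s and 5.11 and 5.09 in WT, with overlap. Its difference was 0.09 ± 0.10. The change of the ERG carrier difference between E14.5 and E12.5, tested after the values were seen, was -0.76 ± 0.14 for Mertk (limma adjusted p = 0.0165), where 1.17% of all genes were called. It was -0.81 for Adgre1 (0.0739), -0.78 for Vcam1 (0.158), -0.59 for C1qb (0.123) and -0.53 for Csf1r (0.133). The Mertk call was kept in 10 of 16 fits without 1 array and was lost without the 3 arrays (-0.85, adjusted p = 0.145). In single genotypes at E12.5 none of the 10 genes was called by limma. In ERG Tg against WT no gene of any kind was called (0%), and none of the 10 had an unadjusted p under 0.05. In ERG/GATA1s against WT 0.00615% of all genes were called. Of the 10 genes 1 had an unadjusted p under 0.05, as did 2564 of the 16258 units tested.

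The third comparison asked what the GATA1s allele does. At E12.5 Vcam1 alone of the 10 genes passed, and it was lower in GATA1s carriers, where 3.48% of all genes were called lower. It had 5.43 and 5.53 in ERG/GATA1s and 5.18 and 5.07 in WT/GATA1s, against 6.38 and 5.75 in ERG Tg and 6.29 and 5.84 in WT. Each carrier array lay below each non-carrier array. Carriers averaged 5.30 ± 0.21 and non-carriers 6.07 ± 0.32 (SD, n = 4 each), a difference of -0.76 ± 0.16 (1.70-fold lower, limma adjusted p = 0.0152). The call was lost with array weights and without the E12.5 WT or ERG Tg array labelled female, either WT/GATA1s array or the ERG/GATA1s array labelled male (adjusted p up to 0.0831). Without the 3 arrays the difference was -0.77 (adjusted p = 0.223). Mertk also separated, at 4.8 to 5.06 in carriers and 5.09 to 5.16 in non-carriers, with a difference of -0.15 that was not called (adjusted p = 0.367). These 2 genes are set against 3.82% of all genes whose carrier arrays all lay lower. Marco separated the other way, at 4.43 to 4.60 in carriers and 4.28 to 4.41 in non-carriers, with a difference of 0.18 (adjusted p = 0.387). How many of all genes separated in that direction was not counted.

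The same arrays differed in markers of hepatoblasts, the immature liver cells, of megakaryocytes and of granulocytes. All 12 hepatoblast genes fell (median -0.94), and their list mean was 8.34 to 8.61 in GATA1s carriers and 9.14 to 9.64 in non-carriers. Of 8 megakaryocyte genes 7 rose (median 1.08), with list means of 8.16 to 8.97 in carriers and 7.33 to 7.99 in non-carriers. Of 13 monocyte and granulocyte genes 6 rose (median 0.25), with list means of 7.42 to 7.72 in carriers and 6.68 to 7.27 in non-carriers. Endothelial list means overlapped, at 6.03 to 6.41 in carriers and 6.05 to 6.31 in non-carriers, as did stellate and mesenchymal ones, at 5.90 to 6.63 in carriers and 6.17 to 6.23 in non-carriers. Immediate early list means were 7.59 to 7.84 in carriers and 6.84 to 7.60 in non-carriers. The part of these cells in the lower Vcam1 signal was not tested. Of other macrophage genes, Mrc1 fell by 0.46, Abca1 by 0.77 and the bridging protein Mfge8 by 0.77, while Spi1 rose by 0.58, Tyrobp by 0.49 and 4 of 10 general phagocyte genes rose, among them Lgals3 by 0.90 and Fcer1g by 0.74. Of the 4 GATA1s carrier arrays 2 are among the 3 that oppose their labelled sex. With the 3 left out, limma called none of the 16258 units (0%), and 2318 had an unadjusted p under 0.05. Among these were all 12 hepatoblast, 7 megakaryocyte and 5 monocyte and granulocyte genes, and the list medians were -0.88, 1.20 and 0.33.

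In WT/GATA1s against WT at E12.5, none of the 10 genes was called by limma, and 1.33% of all genes were called. An unadjusted p under 0.05 was found for 3 of the 10 and for 2628 of the 16258 units tested. Vcam1 differed by -0.94 there (adjusted p = 0.0623), and the call was made after quantile normalization (0.0482) and with array weights (0.0444).

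At E14.5 none of the 10 genes was called in GATA1s carriers, although 13.4% of all genes were. Timd4 had the smallest unadjusted p of the 10 (0.0417, difference 0.28 ± 0.12, limma adjusted p = 0.169). It was the 1 gene of the 10 under 0.05, where 4293 of the 16258 units tested were. The other differences ran from -0.07 for Adgre1 to 0.27 for Vcam1, with a median over the 10 of 0.17. Genes of phagocytes in general rose in the same arrays: 5 of 10 passed, among them Fcer1g by 1.28, Laptm5 by 0.86, Fcgr3 by 0.79 and Lgals3 by 0.61. Spi1 rose by 0.54, Cebpb by 0.51 and Irf8 by 0.33. Markers of monocytes and granulocytes rose in 8 of 13 cases, among them S100a8 by 1.33 and Elane by 1.17. Fcer1g is also known from mast cells and platelets. Of 8 megakaryocyte genes 6 rose (median 1.20), and all 7 immediate early genes rose (median 1.23). Immediate early list means were 6.74 to 7.17 in carriers and 5.04 to 5.48 in non-carriers. Without the 3 arrays 6 megakaryocyte and 5 immediate early genes were called higher. The part of these lists in the differences of the 10 genes was not tested. Of the island adhesion list, Itga4, the erythroblast's partner of Vcam1, fell by 0.70 and Icam4 by 0.80, while Vcam1 itself was not called (adjusted p = 0.341). The erythroid list fell with them, in 8 of 9 genes (median -0.56), and its part in those falls was not tested. Once the 3 arrays were left out, 5 of these 9 were called lower, 4 of 10 general phagocyte and 4 of 13 monocyte and granulocyte genes higher, and Spi1 (0.46, limma adjusted p = 0.147) and Irf8 (0.27, 0.108) lost their calls.

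Vcam1 and Mertk were also the 2 of the 10 genes for which the genotype difference depended on stage in an F test over the stage by genotype terms, against 2.42% of all genes (limma adjusted p = 0.0358 and 0.0306). A further 5 had an unadjusted p under 0.05 without passing, and the share of all genes at that threshold was not counted. For Vcam1 the change of the GATA1s carrier difference between E14.5 and E12.5, a test added after the values were seen, was 1.03 ± 0.23 (adjusted p = 0.0366), where 2.24% of all genes were called. It was kept in 5 of 16 fits without 1 array and was lost without the 3 arrays (1.04, adjusted p = 0.357).

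For each of the 10 genes the highest group mean was at E14.5. WT at E14.5 was highest for Cd5l at 7.07, Adgre1 at 7.31, Csf1r at 7.21 and C1qb at 8.30. WT/GATA1s at E14.5 was highest for Vcam1 at 8.19, Mertk at 6.92, Timd4 at 5.93, C1qa at 6.65 and C1qc at 7.53, and ERG/GATA1s at E14.5 for Marco at 5.06. The 2 arrays of the highest and the next group overlapped for Cd5l, Mertk, Timd4, C1qb, C1qc and Marco. ERG Tg was the lowest E14.5 group for Cd5l, Vcam1, Csf1r, Mertk, Timd4, C1qa, C1qb and C1qc. Its 2 arrays overlapped those of ERG/GATA1s, the next E14.5 group, for Cd5l, Vcam1, C1qa and C1qb. Over the 16 arrays, the mean of the standardised signals of the 10 genes was followed most closely by Igf1, at a Pearson r of 0.977, then by Sat2, Cd302, Itih4, Ppara, Abca6, Ctsh, Plod1, Nr1i2 and F11, all at 0.970 or more. The 16 points share the step between stages, all 10 of these genes rose with stage, and they were picked on these same arrays. In ERG carriers at E14.5, Sat2 fell by 0.55, Cd302 by 0.59, Abca6 by 0.87 and Ctsh, a lysosomal protease, by 0.72, of which Cd302 and Ctsh lost their calls without the 3 arrays (adjusted p = 0.0717 and 0.0875). Igf1 (-0.32, adjusted p = 0.215), Itih4, Ppara, Plod1, Nr1i2 and F11 did not pass.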

How the data were processed

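Total RNA of fetal liver suspensions was hybridised to 16 Affymetrix whole-transcript arrays, per the labels' protocols. The authors deposited log2 signals that RMA had summarised for each probe set, according to the submitters' processing notes. RMA's background correction and normalization were not varied here. Of 28270 probe sets, 21780 had 1 gene symbol, and the probe set with the highest mean represented a symbol. Units above 3.74 (the 30th percentile) on at least 2 arrays were tested, 16258 in all. One model of all 16 arrays was fitted with limma 3.58.1 in R 4.3.3 (8 group means plus labelled sex, 7 residual degrees of freedom, eBayes, two-sided, Benjamini-Hochberg adjustment, threshold 0.05). Fits were tested on simulated data. The 10 genes, the lists and the tests were chosen with earlier results of these data known. Named genes are the 10, called genes of 9 macrophage lists (up to 4 per direction) and up to 3 of each other list, the smallest p first, with genes added by their role chosen after values were seen, and the 10 most correlated genes. Alternatives were other filters, normalizations, sex terms and weights, fewer arrays, every probe set tested, and fits without each array in turn. Some genes of the lists are not reported here. No probe set positions were used. Promoter windows are RefSeq's, GRCm38.p6.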

Additional observations from a re-analysis of the deposited data

Results flagged for a closer look

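Mertk and Vcam1 stand out because their genotype differences were not the same at E14.5 and E12.5 by a test of that difference. For Mertk the adjusted p of limma's F test over the stage by genotype terms was 0.0306, and for Vcam1 it was 0.0358. The ERG carrier difference of Mertk changed by -0.76 between the stages (adjusted p = 0.0165). It was -0.67 at E14.5 and 0.09 at E12.5. The GATA1s carrier difference of Vcam1 changed by 1.03 (adjusted p = 0.0366). It was 0.27 at E14.5 and -0.76 at E12.5. The F test passed in 7 of 16 fits without 1 array for Mertk and in 6 of 16 for Vcam1. Neither result passed without the 3 arrays with sex markers against their labels, where the adjusted p of the changes was 0.145 for Mertk and 0.357 for Vcam1 and that of the F test was 0.204 for Mertk and 0.354 for Vcam1.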

How the results depend on the processing

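No difference of the 10 genes changed sign while called. Counts of called genes are given here. For E14.5 minus E12.5 all 10 stayed called without any 1 array (10 to 10) and at least 9 in each setting. For ERG carriers at E14.5 the count was 4, was 2 without the 3 arrays that oppose their labelled sex, and ran from 1 to 5 without 1 array. It was 1 without the E14.5 ERG Tg array labelled female or the WT/GATA1s or ERG/GATA1s array labelled male. For ERG Tg minus WT at E14.5 it was 2, became 1 without the 3 arrays and 0 with only the arrays compared, and ran from 0 to 3. For ERG/GATA1s minus WT at E14.5 it was 1, became 0 with each array centred, without the sex term, with trend and robust, and with only the arrays compared, and ran from 0 to 2. For GATA1s carriers at E12.5 it was 1, became 0 without the 3 arrays and with array weights, and ran from 0 to 1. For WT/GATA1s minus WT at E12.5 it was 0, became 1 with quantile normalization and with array weights, and ran from 0 to 1. For the remaining genotype comparisons it was 0 throughout (0 to 0). The F test called 2, then 1 with no filter, without the sex term, with the Y-linked covariate and with all probe sets, and 0 with centring and without the 3 arrays, and ran from 0 to 2. The stage change of the ERG difference was called for 1 gene, for 2 with quantile normalization and with the Y-linked covariate, for 0 without the 3 arrays, and for 0 to 3 without 1 array. That of the GATA1s difference was called for 1 gene, for 0 with no filter, the Y-linked covariate, array weights, all probe sets or without the 3 arrays, and for 0 to 1 without 1 array. The cause of these changes was not tested, and fits with fewer arrays also had fewer degrees of freedom. No paired analysis was possible because the labels give no replicate numbers; arrays were matched by labelled sex alone, which is a term of the model, and the fit without it is among the settings above. The signal of Cd5l at E12.5 is at background, so its differences between genotypes at E12.5 lie below the dim level.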
